A study of Mus musculus with 5 samples.

Results

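The genes described here encode CD surface antigens, the leukocyte surface molecules numbered in the cluster of differentiation system, and were read in bone marrow-derived macrophages on 5 two-colour cDNA arrays. They were chosen by symbol. A gene was taken when its annotated symbol was Cd followed by a number and at most 1 letter and 1 digit, when its probe carried 1 symbol, and when it was measured on all 5 arrays, and Cd63, Cd68 and Cd74 were left out. Of 35 symbols of this form 29 qualified, out of 8637 genes in all, since Cd3d, Cd9 and Cd177 each lacked a value on 1 array. The 29 genes had 48 probes, and 23 of them had a single probe. C3H/ARC mice were the source of the cells, which were differentiated from bone marrow in culture with human CSF-1, which this lineage needs to grow. They were unstimulated (0 h) or had been exposed to 10 µg per ml of lipopolysaccharide (LPS) of S. minnesota, a component of the outer membrane of bacteria, for 0.5, 2, 7 or 21 h. Embryo RNA (whole C57BL6/J, 17.5 days) filled channel 2 each time and serves as a common comparison. Each time was measured on 1 array, so differences lack a replicate check and carry no p-value, and precision is limited by having so few arrays. In bulk RNA, fewer cells of a type and less RNA per cell cannot be told apart.

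CD antigens are named by antibody clusters and not by sequence, so the list joins unrelated families. Some mark a lineage: CD79a and CD79b are the signalling chains of the B cell receptor, the CD3 chains those of the T cell receptor, and CD36 is a scavenger receptor of macrophages for oxidised lipoproteins and fatty acids. Others, such as the tetraspanins CD53, CD81, CD82 and CD151, organise membrane proteins in many cells. In macrophages LPS is recognised through CD14 and TLR4, and the known response includes higher costimulatory antigens such as CD40, CD80 and CD86. No probe of Cd14, Cd40, Cd80, Cd83 or Cd86 was among the genes analysed here.

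All values below are log2 ratios of macrophage over embryo for the same probe, minus the median of the array, so 0 is the ratio of the median probe and 1 is 2-fold above it. A ratio compares 2 RNAs for 1 gene and is not a level that ranks genes by abundance. The deposited log ratios were read as base 10. If the base was 2, each log2 value is 3.32 times too large, and none of the 29 genes lies 2-fold from the array median in the mean over the arrays or 2-fold from 0 h. On single arrays Cd53 at 0.5 h alone then reaches 2-fold, at 1.01. The direction is likely and not stated. Of 10 measured macrophage identity markers 7 reached 2-fold over the median probe and 0 were 2-fold below it, with a median of 1.80, led by Fcgr1, Ctss and Lyz2, while Aif1 (0.37), Tyrobp (-0.23) and Cd68 (-0.33) did not reach 2-fold. Of 26 whole-embryo markers 19 lay at least 2-fold below and 0 above, with a median of -1.44. If the direction was the opposite one, higher and lower would exchange throughout. The arrays of 0.5 h and 2 h held more high ratios than the others, with 2.38% and 4.22% of probes at least 10-fold above the median, against 0.142% to 0.486% on the other arrays. In 94 of 207 runs of 96 consecutive probe numbers, called affected runs below, 10% or more of the probes exceeded their 0 h ratio by 2-fold on 1 of these arrays. These runs held 20 of the 48 CD antigen probes and every probe of 8 of the 29 genes. They also held the single probes of Fcgr1 and Ctss and 2 of the 3 probes of Lyz2. On the 0 h array Fcgr1, Ctss and Lyz2 stood at 4.46, 6.21 and 4.16.

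Antigens shared by leukocytes and the scavenger receptor gene Cd36 stood far above embryo, and the stem cell and progenitor antigen genes Cd24a and Cd34 stood below it. Averaged over the 5 arrays, 7 of the 29 genes (24.1%) exceeded the array median by 2-fold or more, against 9.99% of all genes, and 2 (6.9%) lay below it by as much, against 6.19% of all genes. The higher genes were Cd53, Cd5, Cd36, Cd48, Cd52, Cd300c2 and Cd302, and the lower ones were Cd24a and Cd34. The median of all 29 genes was -0.090, against -0.019 for all genes, so the list as a whole was centred near the typical gene. Just inside the 2-fold line was Cd302 at 1.01, with Cd79a at 0.81 just outside, and on the lower side Cd34 at -1.54 was the nearest inside and Cd320 at -0.75 the nearest outside. Of the 9 genes past the line Cd5 alone had every probe in an affected run.

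**Figure D1:**
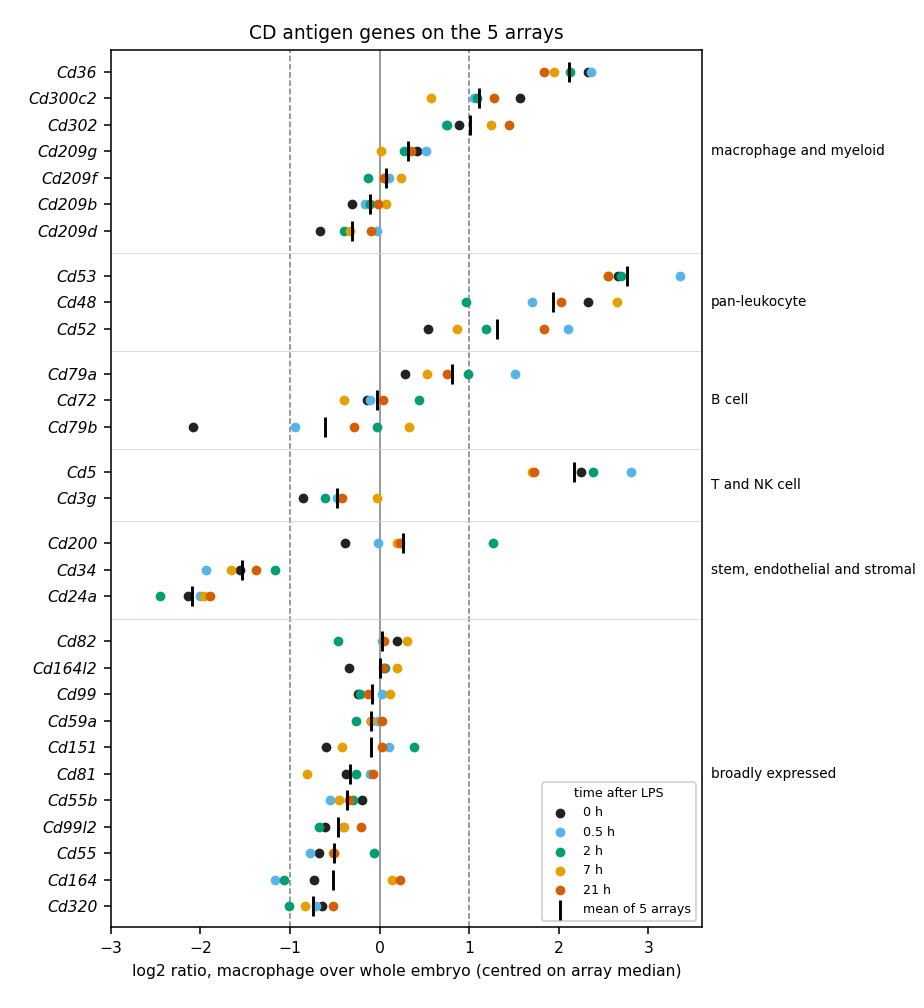
Log2 ratio of macrophage over whole embryo (x axis, centred on the array median) of the 29 CD antigen genes (rows, grouped by lineage) on the 5 arrays (coloured points) with the mean (black bar); dashed lines mark 2-fold. The 3 pan-leukocyte genes, Cd36, Cd300c2, Cd302 and Cd5 lie right of the upper line in the mean. Cd24a and Cd34 lie left of the lower line on every array, and the 11 broadly expressed genes average between -0.75 and 0.021.

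Among antigens of macrophages and other myeloid cells, Cd36 on chromosome 5 was the highest. Its gene mean was 2.33, 2.35, 2.13, 1.94 and 1.84 at 0, 0.5, 2, 7 and 21 h, all above 3-fold, with a mean over the arrays of 2.12 (SD over probes 0.30, 7 probes), or 4.34-fold. Every one of its 7 probes was at least 2-fold above the array median, from 1.55 to 2.47. Cd300c2 on chromosome 11, an activating immunoglobulin-like receptor of myeloid cells, stood at 1.57, 1.05, 1.08, 0.57 and 1.28 in order of time, and was therefore above the 2-fold line on every array except that of 7 h. Cd302 on chromosome 2, a C-type lectin of macrophages and dendritic cells, stood at 0.88, 0.74, 0.75, 1.25 and 1.44, with its highest ratios on the 7 h and 21 h arrays. Only 2.28% of all genes had a higher mean ratio than Cd36, against 8.48% for Cd300c2 and 9.86% for Cd302.

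The 4 measured genes of the Cd209 family, C-type lectins related to DC-SIGN of dendritic cells and tissue macrophages, stayed close to the embryo reference. Cd209g stood at 0.42, 0.52, 0.27, 0.011 and 0.35 in order of time, and Cd209f at 0.064, 0.11, -0.13, 0.24 and 0.048. Cd209b, which has 2 probes, stood at -0.31, -0.17, -0.11, 0.070 and -0.016, and Cd209d at -0.67, -0.025, -0.40, -0.33 and -0.097. No value of these 4 genes reached 2-fold on any array. The macrophage and myeloid class thus divided into 3 genes at least 2-fold above the median and 4 near it, with a class median of 0.31.

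The 3 pan-leukocyte genes all stood at least 2-fold above the median, with a class median of 1.93. Cd53, a tetraspanin of leukocytes on chromosome 3, had the highest ratio of the 29 genes, at 2.66, 3.35, 2.69, 2.55 and 2.55 in order of time and 6.78-fold in the mean, and only 0.857% of all genes had a higher mean. Cd48 on chromosome 1, a ligand of the signalling lymphocyte activation molecule family, stood at 2.32, 1.70, 0.97, 2.65 and 2.02, so its 2 h value was the lowest of the 5. Cd52 on chromosome 4, a short glycopeptide anchored in the membrane of leukocytes, stood at 0.54, 2.10, 1.18, 0.86 and 1.83, lowest at 0 h. Each of the 3 has 1 probe, outside the affected runs.

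Of the antigens that mark T and NK cells, 1 stood as high as the macrophage antigens. Cd5 on chromosome 19, an inhibitory receptor of T cells and of a B cell subset, stood at 2.24, 2.80, 2.38, 1.70 and 1.72 in order of time. Its mean of 2.17 is 4.50-fold, and its 5 arrays all lay above 3-fold, so the high values were not limited to 0.5 h and 2 h, although its single probe lies in an affected run. No second probe of Cd5 was there for comparison, and whether the spotted clone is Cd5 was not tested. Cd3g, a chain of the T cell receptor complex, stood below the median on every array, at -0.85, -0.48, -0.62, -0.028 and -0.42. Cd3d, which encodes another chain of that complex, is not among the 29 genes because it had no value at 0 h, and it stood at 1.69, 1.84, 1.21 and 0.67 at 0.5, 2, 7 and 21 h on a probe in an affected run. The CD3 genes thus did not stand together with each other or with Cd5. The other measured T and NK cell markers were the granzyme genes Gzma, with a mean of 0.94, and Gzmb, at -0.092, and the median of the 4 measured markers, Cd5 and Cd3g among them, was 0.42. T cell RNA in the macrophage samples was not tested.

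The B cell antigens lay near the median with opposite signs. Cd79a on chromosome 7, the alpha signalling chain of the B cell receptor, stood at 0.28, 1.52, 0.98, 0.53 and 0.75 in order of time on a probe in an affected run. Cd79b on chromosome 11, its partner chain, stood at -2.08, -0.95, -0.035, 0.32 and -0.29, the widest range of the 29 genes (SD over arrays 0.95). Cd72 on chromosome 4, an inhibitory lectin of B cells, stood at -0.14, -0.11, 0.44, -0.40 and 0.041. The probes of Cd79b and Cd72 lie outside the affected runs. The ratios of the 2 chains lay farthest apart at 0 h and 0.5 h, where Cd79b was below embryo and Cd79a above it. The median of the 3 B cell genes was -0.034, and that of the 5 B, T and NK cell genes together also -0.034, against 0.31 for the 7 macrophage and myeloid genes. The ranges overlapped, from -0.61 to 2.17 in the lymphoid set and from -0.30 to 2.12 in the myeloid one. With 5 and 7 genes the classes thus did not separate by their ratio. The 2 lymphoid genes with a mean above 0, Cd5 and Cd79a, have their only probe in an affected run. Without these runs the median was -0.32 for 2 B cell genes and 0.54 for 6 macrophage and myeloid genes, and Cd3g stood at -0.48. Cd72, at -0.034, then still lay above Cd209b (-0.11) and Cd209d (-0.30).

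The promoters of the genes 2-fold or more above embryo are shown for the short DNA words found in them, and all 6 with a window in the table are given. Each line is the 250 bases before an annotated start (RefSeq, GRCm38.p6), 5′ to 3′ on the gene's strand. This is the plus strand for Cd48 and the minus strand for the others. They lie at chr3:106790150-106790399 (Cd53), chr19:10738975-10739224 (Cd5), chr5:17835897-17836146 (Cd36), chr1:171681742-171681991 (Cd48), chr11:115001881-115002130 (Cd300c2) and chr2:60284485-60284734 (Cd302). The windows of Cd36, Cd48 and Cd300c2 lie inside the annotated span of the gene, and that of Cd5 overlaps it. Their starts are thus not the outermost ones, and a word present or absent is so for these windows alone. The windows of Cd53 and Cd302 lie directly outside the span. Capitals mark GAGGAA, the core of the sites bound by PU.1, an ETS-family factor of macrophages and B cells, or its reverse complement TTCCTC.
Cd53: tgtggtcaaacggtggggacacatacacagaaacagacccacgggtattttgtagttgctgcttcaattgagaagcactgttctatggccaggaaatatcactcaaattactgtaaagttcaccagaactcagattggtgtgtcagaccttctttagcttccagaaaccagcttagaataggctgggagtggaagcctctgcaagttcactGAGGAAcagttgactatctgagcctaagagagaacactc
Cd5: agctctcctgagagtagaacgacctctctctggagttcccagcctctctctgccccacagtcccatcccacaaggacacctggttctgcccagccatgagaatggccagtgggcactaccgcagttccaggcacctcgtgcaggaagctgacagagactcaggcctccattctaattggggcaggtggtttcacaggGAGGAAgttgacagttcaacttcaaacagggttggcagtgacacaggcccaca
Cd36: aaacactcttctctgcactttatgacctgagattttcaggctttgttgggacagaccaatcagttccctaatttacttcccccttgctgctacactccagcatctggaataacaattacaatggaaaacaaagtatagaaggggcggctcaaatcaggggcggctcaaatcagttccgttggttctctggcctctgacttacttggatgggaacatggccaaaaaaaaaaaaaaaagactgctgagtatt
Cd48: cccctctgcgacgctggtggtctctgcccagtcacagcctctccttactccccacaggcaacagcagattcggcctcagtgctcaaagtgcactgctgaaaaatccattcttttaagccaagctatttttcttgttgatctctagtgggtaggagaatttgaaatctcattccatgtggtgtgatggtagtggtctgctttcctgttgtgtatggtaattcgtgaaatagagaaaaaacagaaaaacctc
Cd300c2: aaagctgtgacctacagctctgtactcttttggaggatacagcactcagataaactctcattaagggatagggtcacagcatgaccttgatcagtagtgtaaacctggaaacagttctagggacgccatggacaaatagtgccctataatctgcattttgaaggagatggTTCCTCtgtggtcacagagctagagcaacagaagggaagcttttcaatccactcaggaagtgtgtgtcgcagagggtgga
Cd302: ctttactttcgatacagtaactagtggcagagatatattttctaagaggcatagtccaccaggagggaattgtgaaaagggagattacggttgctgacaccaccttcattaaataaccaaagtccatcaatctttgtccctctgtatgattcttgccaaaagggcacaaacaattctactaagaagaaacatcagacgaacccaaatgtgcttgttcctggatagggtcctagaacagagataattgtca

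On either strand GAGGAA began 39 bases before the start used for Cd53, 53 before that for Cd5 and 80 before that for Cd300c2. The word was not in the windows of Cd36, Cd48 and Cd302. It was thus in 3 of these 6 windows, in 10 of the 30 windows of all CD antigen genes and in 23.3% of the 32851 windows of all genes. A C/EBP-like word, TTGCNNAA, was in 1 of the 6 (Cd302, not in capitals), in 4 of the 30 and in 9.56% of all. A match is a description of these letters and not a binding site. Of the 29 genes, 25 had a window in the table.

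Antigens of stem cells, endothelium and stroma included the 2 genes that stood lowest against embryo. Cd24a on chromosome 10, a glycoprotein of immature blood cells, epithelia and neurons, stood at -2.14, -2.001, -2.46, -1.96 and -1.90 in order of time, and its mean of -2.09 is 4.26-fold below the array median (SD over probes 1.15, 8 probes). Of its 8 probes 7 were at least 2-fold below, from -3.10 to -1.29, and the remaining one averaged 0.34 and stayed within 2-fold on all arrays. Without that probe the mean was -2.44, and with the 2 probes outside the affected runs alone it was -1.29. Cd34 on chromosome 1, the sialomucin of blood stem cells and vessels, stood at -1.56, -1.93, -1.17, -1.66 and -1.38 (mean -1.54, SD over probes 0.77, 3 probes). Its 1 probe outside the affected runs averaged -0.69, so the 2-fold distance rests on the other 2. Cd200, a ligand of an inhibitory myeloid receptor, averaged 0.26, but its 2 probes disagreed, at 1.04 in an affected run and at -0.53 outside.

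**Figure D2:**
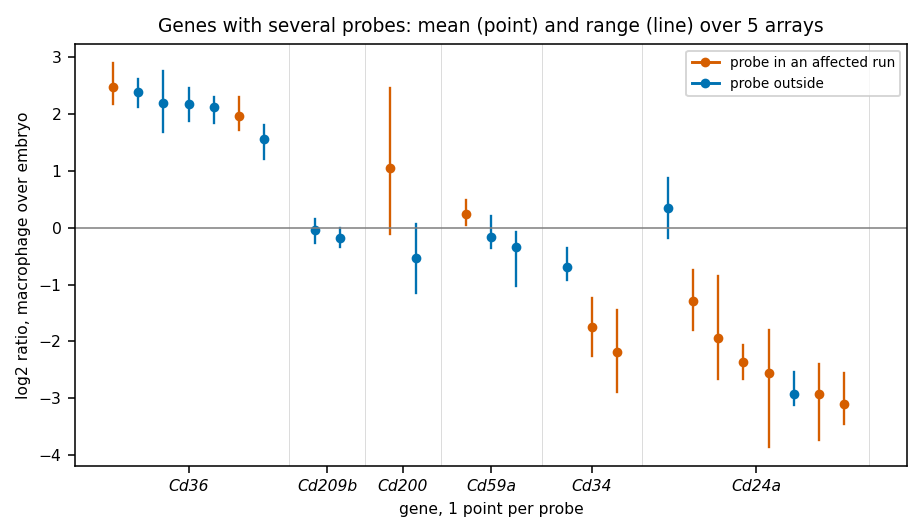
Probes of the 6 CD antigen genes with several probes; y axis, log2 ratio of macrophage over embryo; points, mean over 5 arrays; lines, lowest to highest array; orange, probe in an affected run. The 7 probes of Cd36 lie between 1.55 and 2.47, 7 of 8 probes of Cd24a lie at or below -1.29, and the 2 probes of Cd200 lie on opposite sides of 0.

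The 11 broadly expressed antigens were close to the array median or somewhat below it. Their class median was -0.33, 10 of the 11 means were below 0, and none was 2-fold from the median. The tetraspanin genes Cd82, Cd151 and Cd81 averaged 0.021, -0.10 and -0.33. The genes of complement regulators, which protect cells from their own complement, averaged -0.092 (Cd59a, 3 probes), -0.37 (Cd55b) and -0.51 (Cd55). Cd164, a sialomucin of endosomes and the cell surface, averaged -0.52, and Cd320, the receptor for transcobalamin-bound vitamin B12, -0.75. Among them Cd164 varied most, at -0.73, -1.17, -1.06, 0.14 and 0.23 in order of time, below embryo on the 3 earlier arrays and slightly above it on the 2 later ones, on a probe in an affected run. Cd99, Cd99l2 and Cd164l2 averaged -0.090, -0.46 and -0.0017.

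Along the time course the largest difference from 0 h among the 29 genes was that of Cd79b. It stood at -0.95, -0.035, 0.32 and -0.29 after 0.5, 2, 7 and 21 h, against -2.08 at 0 h. The changes were 1.13, 2.05, 2.41 and 1.79, or 2.19-, 4.13-, 5.30- and 3.46-fold, and all 4 values with LPS were above the 0 h value. The gene was the only one of the 29 that was at least 2-fold above 0 h at every later time. A larger change was seen in 4.96% of all genes at 0.5 h, 4.70% at 2 h, 0.313% at 7 h and 0.579% at 21 h. All 4 changes share the single 0 h reading of 1 probe. Against the 0.5 h array they were 0.91, 1.27 and 0.66 at 2, 7 and 21 h, so 2-fold was reached at 7 h alone. Without centring the changes were 1.09, 2.08, 2.19 and 1.65.

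The other B cell markers did not follow Cd79b as a group. Of 10 measured B cell markers, Cd79b included, 3, 2, 2 and 1 were at least 2-fold above 0 h at 0.5, 2, 7 and 21 h, where 5.95%, 12.4%, 4.08% and 3.05% of all genes were, and 0 were lower at each time. Cd79b itself was among the higher markers at each time and was the only one at 21 h. In the same order of times the median change of the 10 markers was 0.17, 0.27, 0.10 and -0.045. Cd79a differed from 0 h by 1.23, 0.70, 0.25 and 0.46, past 2-fold at 0.5 h alone, and Cd72 by 0.031, 0.59, -0.25 and 0.18. Vpreb1, a surrogate light chain gene of pre-B cells, differed from 0 h by 0.22, 0.82, 1.03 and 0.33. The transcription factor gene Ebf1 differed from 0 h by 2.06, 1.74, 0.60 and -0.47 on 2 probes, 1 of them in an affected run. Ighm, the heavy chain gene of IgM, differed from 0 h by 0.23, -0.26, -0.38 and -0.27, and the complement receptor gene Cr2 by 0.12, -0.64, -0.49 and -0.38. Spib, a transcription factor gene of the ETS family, differed from 0 h by -0.77, -0.57, -0.60 and -0.51, and Tnfrsf13c, the gene of the BAFF receptor, by 0.11, -0.044, 0.19 and -0.025. Ratios to embryo have no zero and cannot be summed over markers, and the part of B cells in the change of Cd79b was not tested. Over the 5 arrays the members most like Cd79b in shape were Cd164l2 (Pearson r = 0.93), Cd209b (0.93) and Cd3g (0.80), as a description over 5 points that share the embryo channel and array scaling. Their changes at 7 h were 0.53, 0.38 and 0.83, all under 2-fold.

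**Figure D3:**
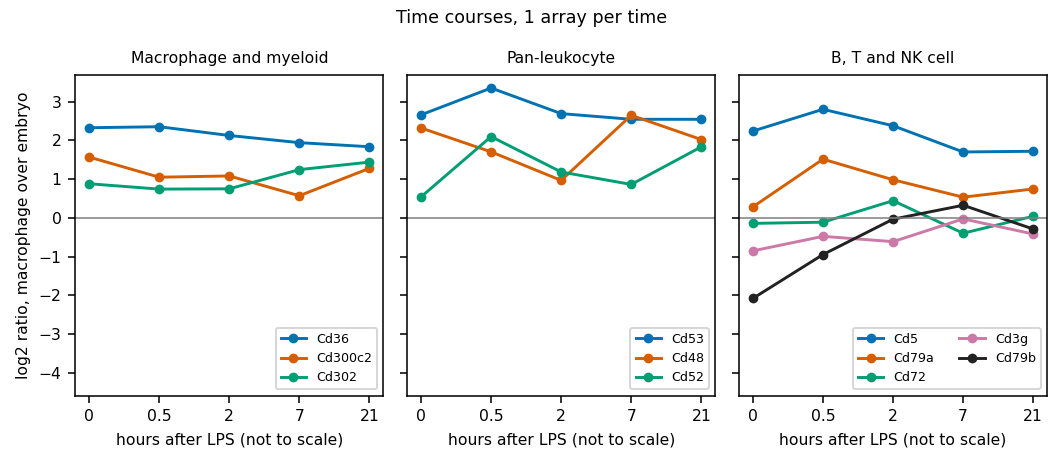
Log2 ratio of macrophage over embryo (y axis) against hours of LPS (x axis, categories) for selected genes in 3 classes, 1 array per point. Cd36 and Cd53 stay at 1.84 or above throughout, Cd48 is lowest at 2 h (0.97), Cd52 is lowest at 0 h (0.54), and Cd79b is at -2.08 at 0 h and between -0.95 and 0.32 later.

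Counted over all 29 genes, changes of 2-fold were few, with 1 to 3 genes higher at each time. The share was above that of all genes at 0.5 h and 21 h, below it at 2 h and close to it at 7 h. Since 1 gene is 3.45% of the 29, these differences rest on few genes and are not read as a pattern over time. At 0.5 h 3 genes were higher (10.3%, against 5.95% of all genes), Cd52, Cd79a and Cd79b, and 0 lower (1.01% of all genes). At 2 h 2 were higher (6.9%, against 12.4% of all genes), Cd79b and Cd200, and 1 lower, Cd48 (3.45%, against 1.1%). At 7 h Cd79b alone was higher (3.45%, against 4.08%) and 0 lower (3.16% of all genes). At 21 h Cd79b and Cd52 were higher (6.9%, against 3.05%) and 0 lower (1.45% of all genes). The median change of the 29 genes was 0.14, 0.032, 0.19 and 0.18, against 0.078, 0.070, -0.00029 and 0.022 for all genes. With probes outside the affected runs alone, 2, 1, 1 and 2 of 21 genes were higher in order of time (9.52%, 4.76%, 4.76% and 9.52%), where 1.28%, 4.22%, 4.52% and 2.55% of 5996 genes were, so the share was then above that of all genes at 2 h and 7 h too, by a single gene. The runs were defined by high ratios at 0.5 h and 2 h, so their removal lowers the share of all genes at these times by construction. Under quantile normalization of the arrays 2, 2, 1 and 2 of the 29 genes were at least 2-fold higher, where 2.78%, 4.98%, 4.83% and 3.75% of all genes were, and 5, 5, 4 and 4 were lower, where 3.45%, 4.57%, 5.97% and 4.53% were. Cd36, Cd5 and Cd53 were among the lower genes at all 4 times. Of the 863 genes 2-fold or more above embryo in the mean, 18.9%, 24.4%, 22.8% and 18.7% were lower under this scaling. Cd79a at 0.5 h was then at 0.91, short of 2-fold.

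**Figure D4:**
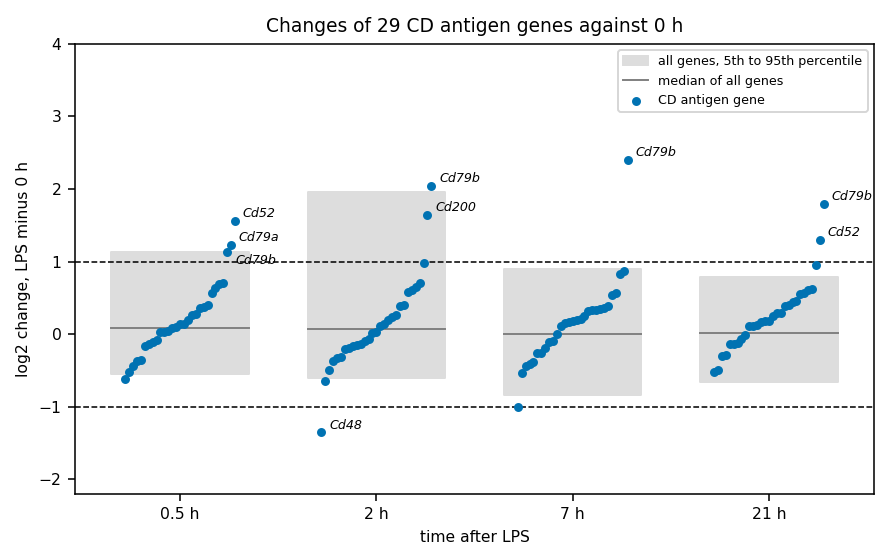
Log2 change against 0 h (y axis) of the 29 CD antigen genes (points, sorted within each time) at 0.5, 2, 7 and 21 h of LPS; grey boxes span the 5th to 95th percentile of all genes, grey lines their median, dashed lines 2-fold. Most points lie inside the boxes. Cd79b lies above them at all 4 times, Cd52 at 0.5 h and 21 h, Cd79a at 0.5 h and Cd164 at 21 h, while Cd48 lies below at 0.5 h and 2 h, Cd82 at 2 h and Cd300c2 at 7 h.

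Among pan-leukocyte genes, Cd52 was 2.95-fold above 0 h at 0.5 h and 2.45-fold at 21 h, with changes of 1.56, 0.64, 0.32 and 1.29. The order of its values was not monotonic, and against the 0.5 h array its 21 h value was lower, at -0.26. Cd48 differed from 0 h by -0.62, -1.35, 0.33 and -0.30, and its 2 h value of 0.97 against 2.32 at 0 h was 2-fold lower at this time alone. Of all genes 0.370% had a lower change at 2 h. Under quantile normalization the 2 h change of Cd48 was -3.40, and Cd48 was lower by 2-fold or more at 0.5 h and 21 h too. Cd53 differed from 0 h by 0.69, 0.032, -0.11 and -0.12 and so was near its 0 h value from 2 h on, though 2-fold or more below it at all 4 times under quantile normalization.

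With centring on the array median the macrophage antigen genes differed from 0 h by less than 2-fold at each time. Without centring Cd300c2 was lower by 2-fold or more at 7 h. Under quantile normalization Cd36 was lower by 2-fold or more at all 4 times and Cd300c2 at 0.5, 2 and 7 h. Cd36 differed from 0 h by 0.026, -0.20, -0.39 and -0.49, with an SD over its 7 probes of 0.24, 0.27, 0.37 and 0.28. At 21 h all 7 probes lay below 0 h, from -1.06 to -0.22, and at 7 h 6 of the 7. This lower value of Cd36 was 0.711 of 0 h at 21 h, and 9.19% of all genes had a lower change. Under quantile normalization it was past 2-fold, at -1.63 and -1.57 for 7 h and 21 h. Cd300c2 differed from 0 h by -0.52, -0.49, -0.999 and -0.29, just short of 2-fold at 7 h, and Cd302 by -0.14, -0.13, 0.37 and 0.56. Changes of the 4 Cd209 genes ran from -0.41 to 0.64 over all times. Cd5 differed from 0 h by 0.56, 0.14, -0.54 and -0.52, with lower values on the 2 later arrays as for Cd36.

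Of the remaining genes, Cd200 differed from 0 h by 0.36, 1.64, 0.57 and 0.61, but at 2 h its probes gave 2.57 in an affected run and 0.72 outside (SD 1.31). Cd164 differed from 0 h by -0.44, -0.33, 0.87 and 0.96, under 2-fold at each time. Cd151 differed from 0 h by 0.71, 0.99, 0.19 and 0.63 on a probe in an affected run. Cd24a differed from 0 h by 0.14, -0.31, 0.19 and 0.25, and its SD over 8 probes, 0.47, 0.47, 0.91 and 0.76, was larger than the change at each time. Cd34 differed from 0 h by -0.37, 0.39, -0.10 and 0.18 (SD 0.13 to 0.55 over 3 probes). Pooled over all genes with several probes, the SD over probes was 0.67, 0.97, 0.51 and 0.47 for the 4 times. This is spread between probes on the same arrays and holds none between cultures or arrays, so the error of a change between single arrays is unknown.

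A further list held macrophage genes that carry other symbols, most of them genes of CD antigens. Fcer1g, Marco and Ly6c1 in it have no CD number. The values are RNA ratios and do not measure protein at the cell surface. Of 57 listed symbols, older names included, 18 were measured, and 7 of these stood at least 2-fold above the array median and 0 below, with a median of 0.71. The highest was Fcgr1, a high-affinity receptor for IgG, at 4.46, 11.3, 11.3, 5.98 and 5.73 in order of time, so that its mean of 7.75 is carried by the 0.5 h and 2 h arrays. Next in the mean were Fcer1g (2.04), the lysosomal membrane gene Lamp2 (1.76), the urokinase receptor gene Plaur (1.68), the TNF receptor gene Tnfrsf1a (1.67) and Tlr2 (1.41). Of these 6, the probes of Fcgr1, Plaur, Tnfrsf1a and Tlr2 and 2 of the 3 of Lamp2 lie in affected runs. Fcer1g, which encodes the shared signalling chain of activating Fc receptors, has its probe outside them and differed from 0 h by -0.38, 0.37, 1.14 and 0.48. Of the 18 genes 1, 4, 6 and 4 were at least 2-fold above 0 h at 0.5, 2, 7 and 21 h and 0, 1, 1 and 1 below. Of all genes 5.95%, 12.4%, 4.08% and 3.05% were above and 1.01%, 1.1%, 3.16% and 1.45% below. The list had a median change of 0.033, 0.23, 0.92 and 0.42. The largest changes lay in both directions. Fcgr1 differed from 0 h by 6.83 and 6.84 at 0.5 h and 2 h, on its probe in an affected run. Marco, a scavenger receptor gene, differed by 3.96 at 21 h, and Tnfrsf1b, a TNF receptor gene, by 2.26 at 7 h. Sirpa, the gene of the inhibitory receptor for CD47, differed by -3.46 at 7 h and by 0.060 at 21 h, and Tfrc, the transferrin receptor gene, by -2.09 at 21 h. The probes of Marco, Tnfrsf1b and Sirpa lie outside the affected runs. The 5 measured partners and co-receptors, which also include Sirpa, had a median change of -0.056 at 7 h. Among them Ly86, which encodes the MD-1 chain paired with CD180, differed from 0 h by 0.46, 0.39, 2.04 and 0.94 on a probe outside the affected runs, or 4.12-fold at 7 h.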

How the data were processed

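RNA of macrophages and of whole embryo was hybridised together on 2-colour cDNA arrays after amino-allyl labelling, per the labels' protocols. The deposited file gives 1 log ratio for each probe and array, read here as log10. The labels name Cy3 as a dye without giving the dye of each channel. Log base, direction, background correction and the authors' normalization are not given in the sources used here. Spot intensities were not analysed here, so a ratio from a dim spot cannot be told from one of a bright spot. Values were multiplied by 3.32 and centred on each array's median over the 18296 of 19828 probes measured on all 5 arrays. Of these, 13782 carried 1 gene symbol in the platform annotation of 2008 and were averaged to 8637 genes. All 29 CD antigen genes matched the GRCm38.p6 gene table by Entrez identifier. Genes were put in 6 classes by lineage, 6 of them through a relative or an older symbol in the list. The members, classes, lists and affected runs (stretches of 96 probe numbers where 10% or more of the probes exceeded their 0 h ratio by 2-fold on the array of 0.5 h or of 2 h) were chosen with earlier results of these data known. Every member may be named. Values on all arrays are given for members 2-fold from the array median or from 0 h at 7 h or 21 h and for all myeloid and B cell members. From other lists up to 6 genes were named by the size of their mean ratio and up to 6 by that of their change, and the 3 macrophage markers under 2-fold were named after their values were seen. Likeness to Cd14 was not computed, as it is not analysed here. Counts use 2-fold as a rule of size, and no test was made. A single time has 1 array, and the 5 arrays behind a mean are 5 conditions and not replicates of 1 group. The alternatives were other centring, scaling, log base, probe summary, probe sets, arrays, baseline and thresholds. The procedure was run on simulated arrays with large planted changes, less noise than the spread over probes seen here and no affected runs. That run checks the computation and says nothing on the error of these arrays. Python 3.11.15, pandas 2.3.3 and numpy 2.4.6 were used.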

Additional observations from a re-analysis of the deposited data

How the results depend on the processing

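No paired analysis was possible because each time has 1 array and no result comes from a test. Over all alternatives 142 values of counts and class medians and 179 of single genes stayed within the allowed spread (1.5 times for counts, the SD over probes otherwise, divided by the root of the number of genes for medians), 40 and 24 moved further and 1 turned. Counts of genes above, below, higher or lower in this section are of genes at least 2-fold away, unless 1.5-fold or 3-fold is named. With log base 2 the counts above and below the array median were 0 and 0, and the counts of changed genes that had been above 0 were 0. The pan-leukocyte, T and NK, and stem class medians were then 0.58, 0.25 and -0.46. Under quantile normalization the pan-leukocyte median was 2.54. At the 4 times 5, 5, 4 and 4 genes were then lower than 0 h, and Cd79a at 0.5 h was under 2-fold (0.91). Without centring 1 gene, Cd300c2, was lower at 7 h. Without affected runs the T and NK median was -0.48 (1 gene) and the stem median -0.69. Then 1 gene lay at least 2-fold below the array median and 1 was at least 2-fold higher at 2 h. With probes on any array the T and NK median was 1.35, since Cd3d enters. Against 0.5 h, 1 gene was higher and 0 lower at 2 h, 2 and 2 at 7 h, and 1 and 1 at 21 h, and Cd52 at 21 h turned to -0.26. At 1.5-fold, 4 genes lay below the array median, and 6, 7, 3 and 5 were higher than 0 h and 1, 2 and 1 lower at 0.5, 2 and 7 h. At 3-fold, 4 lay above and 1 below the array median, 0 were higher at 0.5 h, 0 lower at 2 h and 1 higher at 21 h. Leaving out 1 array in turn gave 6 to 7 genes at least 2-fold above the array median and 2 at least 2-fold below. The class medians were then 0.26 to 0.39 (macrophage and myeloid), 1.75 to 2.18 (pan-leukocyte) and -1.63 to -1.44 (stem). Except for quantile normalization and the changes without affected runs, no share of all genes was set beside the counts under these alternatives. Such counts are therefore not read as differing from all genes. Leaving out the outlying Cd24a probe was chosen after seeing the data. Thresholds, baseline and log base change the values by their construction. For the scaling the cause was not tested. Genes with 1 probe on 1 array carry no error of their own, and this limits every single-gene change.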

Other observations

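Of the CD pattern, 3 genes fall outside the 29 by the rule and are given as values. Cd74, the invariant chain of MHC class II, stood at 0.82, 0.70, 0.90, 1.31 and 1.10 at 0, 0.5, 2, 7 and 21 h on a probe in an affected run. Cd68, a macrophage endosomal glycoprotein, stood at -0.49, -0.59, -0.51, -0.023 and -0.037, and Cd63, a tetraspanin of late endosomes, at -0.078, 0.025, -0.17, 0.12 and -0.10 over 3 probes. Cd68 was thus not above whole embryo on any array, although it is used to mark macrophages. Cd177, an antigen of neutrophils, had no value at 7 h and stood at 0.33 at 0 h and at -0.36, -0.40 and -0.36 at 0.5, 2 and 21 h. Cd9, a tetraspanin, had no value at 21 h and stood at 0.15, 0.25, -0.089 and 0.28 on the other 4 arrays.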
